A study of Rattus norvegicus with 12 samples.

Results

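The 9 genes described here encode parts of the axon and the synapse of neurons: the neurofilament subunits Nefl (ENSRNOG00000013658), Nefm (ENSRNOG00000013916) and Nefh (ENSRNOG00000008716), the release proteins Snap25 (ENSRNOG00000006037) and Syt1 (ENSRNOG00000006426), the neuronal enzymes Eno2 (ENSRNOG00000013141) and Uchl1 (ENSRNOG00000002343), and the GABA-synthesizing enzymes Gad1 (ENSRNOG00000000007) and Gad2 (ENSRNOG00000018200). They were chosen by Ensembl identifier for what they are known to do, but with earlier results of these data already known. All 9 identifiers were found among the 32883 genes of the count table. The symbols come from the definition of the list, since the reference table used here carries no Ensembl identifiers against which to check them. Of the 9 genes, 8 passed the filter on low counts and were among the 5285 genes tested. Eno2 did not pass.

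Neurofilaments are the intermediate filaments of axons. They are built from a light, a medium and a heavy subunit and set the calibre of large myelinated fibres, such as those of the white matter tracts of the cord. Snap25 sits on the plasma membrane of the nerve ending and forms the SNARE complex that fuses vesicles, and Syt1 is the calcium sensor on the vesicle that triggers this fusion. In the cord, GABA is made by local inhibitory neurons. Gad1 encodes the larger form of glutamate decarboxylase, found through the whole cell, and Gad2 the smaller form, which is concentrated at nerve endings.

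All samples were spinal cord at the ninth thoracic segment (T9) of Sprague Dawley rats, an outbred stock. Uninjured cord was compared with cord 5 days after a T9 hemisection, a cut through 1 side of the cord, and with cord 5 days after the same injury in rats that also had electrical stimulation through the epidural space over L2 to S1. These groups are called uninjured, injured and stimulated here, with 4 libraries each. The profiled segment was the injured one, not the stimulated ones. The sources used here state neither age nor sex, nor the animal behind each library, nor the stimulation schedule. The spread that the p-values weigh is therefore that between these samples and may be technical. Libraries held 204836 to 553986 counts, where a count is a tag from the 3' end of a transcript, and the injured libraries were the deepest on average. In every library the highest count of any gene lay between 4059 and 4094, just under the number of different molecular identifiers that 6 bases allow, and the highest count of a member was 1595. Over all genes the uninjured libraries fell into 2 pairs. Replicates 1 and 4 were alike (chi-square per degree of freedom 3.35, Pearson r of log2 CPM 0.910), as were replicates 2 and 3 (2.99, r 0.943), while the other uninjured pairings gave 7.62 to 10 (r 0.803 to 0.863). The stimulated libraries split in a like way but less widely. Replicates 2 and 4 gave 2.95 (r 0.902) and replicates 1 and 3 gave 3.77 (r 0.882). The other stimulated pairings gave 5.18 to 6.23 (r 0.827 to 0.856).

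Start regions of the genes are shown as a description, and a link between them and the levels below was not tested. The RefSeq promoter table of the GRCr8 assembly held 5 of the 9 genes: Syt1, Eno2, Uchl1, Gad1 and Gad2. The 4 of them that were tested are printed 5′ to 3′ in the direction of the gene, as the 250 bases before the start. Capitals mark matches on either strand to the TATA box TATAAA, the GC box GGGCGG, the CCAAT box CCAAT and the RE1 core CAGCACC, which is part of the element bound by the neuronal repressor REST. E-box matches, CANNTG, were also counted and are not capitalised.
Syt1 (chr7:46244214-46244463, minus strand): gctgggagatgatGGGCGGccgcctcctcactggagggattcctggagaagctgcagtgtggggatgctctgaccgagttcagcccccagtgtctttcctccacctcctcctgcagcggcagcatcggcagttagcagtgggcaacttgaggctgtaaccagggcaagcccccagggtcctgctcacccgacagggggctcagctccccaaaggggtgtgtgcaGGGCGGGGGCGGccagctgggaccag
Uchl1 (chr14:41849418-41849667, minus strand): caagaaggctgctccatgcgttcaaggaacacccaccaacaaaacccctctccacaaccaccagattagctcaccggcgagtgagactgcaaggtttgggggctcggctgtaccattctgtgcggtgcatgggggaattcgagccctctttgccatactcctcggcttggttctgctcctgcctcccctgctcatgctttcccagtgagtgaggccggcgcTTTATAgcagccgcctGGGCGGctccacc
Gad1 (chr3:75777202-75777451, plus strand): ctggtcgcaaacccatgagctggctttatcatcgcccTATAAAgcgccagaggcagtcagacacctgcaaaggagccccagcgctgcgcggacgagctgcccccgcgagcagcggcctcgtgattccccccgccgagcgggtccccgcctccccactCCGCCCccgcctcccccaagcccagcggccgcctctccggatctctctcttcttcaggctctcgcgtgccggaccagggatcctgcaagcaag
Gad2 (chr17:89671468-89671717, plus strand): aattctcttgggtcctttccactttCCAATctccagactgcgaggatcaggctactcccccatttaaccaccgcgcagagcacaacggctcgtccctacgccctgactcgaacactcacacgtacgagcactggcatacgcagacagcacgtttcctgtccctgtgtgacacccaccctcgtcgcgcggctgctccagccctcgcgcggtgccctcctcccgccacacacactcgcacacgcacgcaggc

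The 2 glutamate decarboxylase genes differed in their TATA box, GC box and CCAAT box matches in these windows. The Gad1 window had 1 TATA box match at 213 bases before the start and 1 GC box match, and the Gad2 window had neither but 1 CCAAT match at 225 bases before the start. Uchl1 had a TATA box match on the opposite strand at 29 bases and a GC box match at 13 bases before the start. Syt1 had 3 GC box matches, at 237, 26 and 20 bases before the start, with the last 2 directly next to each other and no overlap with another motif. None of the 4 windows held the RE1 core, nor did that of Eno2, which had 2 GC box matches. Among 33465 promoter windows of the same length, 12.9% held the TATA box, 30.5% the GC box, 34.0% the CCAAT box, 65.5% an E-box and 5.44% the RE1 core. Syt1, Eno2 and Gad1 had 1 E-box match each, and Uchl1 and Gad2 had 0. All 5 windows were richer in G and C than the median window of 51.2%, from 59.6% in Uchl1 to 69.6% in Eno2. A match is a run of letters, not a shown binding site, and the RefSeq build differs from the Rnor_6.0 build named for the counts.

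The 9 genes together took a smaller share of the counts in every injured and stimulated library than in any uninjured one. They held 0.877% to 1.36% of a library's counts in uninjured cord, 0.155% to 0.520% in injured cord and 0.108% to 0.182% in stimulated cord. Of the 8 injured and stimulated libraries, injured replicate 1 had the highest share. In a bulk sample, fewer cells or axons of a type and less RNA per cell cannot be told apart, and this holds for every value below. The levels and fold changes below rest on shares of counts too, and more RNA from other cells would lower these as well. Which of these applies was not tested.

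**Figure D1:**
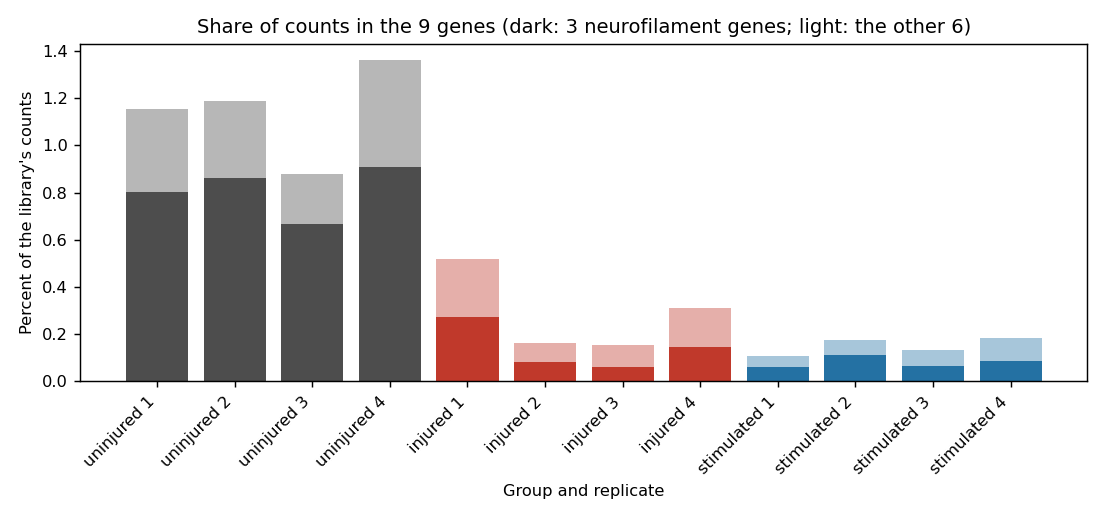
Share of each library's counts in the 9 genes, in percent, for 12 libraries (dark: Nefl, Nefm and Nefh; light: the other 6 genes). Uninjured libraries lie between 0.877% and 1.36%, and no injured or stimulated library is above 0.520%.

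Injured was compared with uninjured cord first. All 8 tested genes fell (adjusted p under 0.05 in edgeR's quasi-likelihood test, by Benjamini-Hochberg over 5285 genes). Of all tested genes 15.2% were called lower in this comparison and 32.0% were called in either direction. The 6 genes Nefl, Nefm, Nefh, Snap25, Syt1 and Uchl1 were over the filter's limit of 30.4 CPM (a count as a share of its library's total, on the usual CPM scale) in every library. Gad2 entered the test through the uninjured libraries, since only 2 of 4 injured and 0 of 4 stimulated libraries reached that limit. Its place among the genes tested thus already favoured a fall. Gad1 reached the limit in 2 of 4 injured and 2 of 4 stimulated libraries, and it still passed the filter in a fit to those 2 groups alone. Without both uninjured replicates 1 and 4, a choice made after seeing the data, 5 of the 8 were called, with Snap25, Uchl1 and Gad1 lost, and without both replicates 2 and 3 all 8 were. Of all genes tested in those fits, 994 of 6427 and 580 of 5630 were called lower in the same order. With no filter, 18333 genes were tested and the median log2 fold change of all 9 genes was -1.44. In that fit it was 0.05 over the 5285 genes that pass the filter.

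The neurofilament genes showed the largest falls of the set. Nefl, the light subunit that the filament cannot form without, stood at 5802, 3827, 3022 and 6036 CPM (scaled by TMM factors) in uninjured replicates 1 to 4. It stood at 1215, 419, 237 and 702 CPM in the injured ones. Every injured library was thus below every uninjured library, and injured replicate 1 was the highest of its group. Nefl had a log2 fold change of -2.86 (SE 0.44, edgeR adjusted p = 0.000149), a fall to 0.138 of the uninjured level. It was the 11th most negative of the 5285 log2 fold changes.

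Nefh, the heavy subunit with the long phosphorylated tail, was at 1301, 1977, 1659 and 1276 CPM in uninjured and at 519, 140, 155 and 191 CPM in injured cord. Injured replicate 1 lay apart from the other injured libraries but still well below the uninjured ones. Nefh fell by 2.62 on the log2 scale (SE 0.38, edgeR adjusted p = 9.08e-05). Leaving out injured replicate 1 made this -3.27. Nefm, the medium subunit, was at 1756, 3482, 3035 and 2084 CPM in uninjured and at 989, 287, 266 and 481 CPM in injured cord. Its log2 fold change was -2.35 (SE 0.46, edgeR adjusted p = 0.000942), the 45th most negative of all, and its groups did not overlap either. Of all tested genes 13.5% had every injured library below every uninjured one.

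The synaptic genes fell less by the fitted estimate. Snap25 was at 1461, 1360, 867.14 and 2042 CPM in uninjured and at 867.05, 160, 232 and 565 CPM in injured cord. The groups met at uninjured replicate 3 and injured replicate 1, which had nearly the same level. Snap25 fell by 1.65 on the log2 scale (SE 0.51, edgeR adjusted p = 0.0194). The adjusted p from edgeR was 0.0573 without injured replicate 2 and 0.0664 without injured replicate 3, the 2 lower injured libraries. Without both uninjured replicates 1 and 4 the fold change was -1.30 (edgeR adjusted p = 0.113), and over the 24 alternatives for Snap25 the adjusted p ranged from 9.79e-05 to 0.113.

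Syt1 was at 256, 326, 394 and 345 CPM in uninjured cord, the narrowest spread of the 9 genes there, with a coefficient of variation of 17.4%. In injured cord it was at 248, 54.3, 92.2 and 122 CPM. Injured replicate 1 came within a few CPM of uninjured replicate 1 without reaching it. Syt1 fell by 1.34 on the log2 scale (SE 0.36, edgeR adjusted p = 0.00782), and it stayed past the threshold in all 24 alternatives, with adjusted p up to 0.0454.

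Uchl1, a ubiquitin hydrolase abundant in neuronal cell bodies and axons, had the smallest fall of the 8 tested genes. It was at 1882, 1663, 1002 and 2020 CPM in uninjured and at 1266, 598, 601 and 719 CPM in injured cord. Injured replicate 1 was above uninjured replicate 3, so the groups overlapped. The log2 fold change of Uchl1 was -1.04 (SE 0.31, edgeR adjusted p = 0.0150), and the adjusted p was 0.0536 without injured replicate 2 and 0.0582 without injured replicate 3. Without both uninjured replicates 1 and 4 the log2 fold change of Uchl1 was -0.76 (edgeR adjusted p = 0.103), the upper end of a range over 24 alternatives that began at 0.00224. Eno2, the neuronal form of the glycolytic enzyme enolase, had only 27 counts in the 4 uninjured libraries together, 16 in the injured and 6 in the stimulated ones. Eno2 is known as an abundant transcript of neurons, and whether this identifier is that gene and covers its 3' end was not checked, so its values hold for the identifier. Uninjured libraries had Eno2 at 21.7, 28.8, 23.0 and 11.4 CPM, and injured ones at 19.7, 5.17, 2.63 and 5.08 CPM. Injured replicate 1 lay within the uninjured range, so the groups overlapped. The ratio of summed counts per summed scaled total was 0.386 in injured against uninjured cord, with an exact 95% interval of 0.194 to 0.743 that covers counting error only. Without a filter on low counts Eno2 had a log2 fold change of -1.25 (edgeR adjusted p = 0.183, and 0.190 with DESeq2).

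The GABA synthesis genes were counted in low numbers. Gad2 was at 99.7, 108, 55.8 and 72.1 CPM in uninjured cord, from 17 to 45 counts, and at 55.1, 12.9, 29.0 and 37.2 CPM in injured cord, from 5 to 28 counts. The injured libraries all lay below the uninjured ones, with injured replicate 1 just under uninjured replicate 3. For Gad2 the log2 fold change was -1.29 (SE 0.37, edgeR adjusted p = 0.0125), and the largest adjusted p over its 22 alternatives was 0.0481.

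Gad1 was spread most widely among uninjured libraries, at 178, 60.0, 69.0 and 216 CPM. In injured cord it was at 39.3, 23.3, 21.1 and 91.4 CPM, so that injured replicate 4 exceeded uninjured replicates 2 and 3. The log2 fold change of Gad1 was -1.49 (SE 0.53, edgeR adjusted p = 0.0400). This call was lost in 8 of 24 alternatives, with adjusted p from 0.00137 to 0.525, among them DESeq2 (adjusted p = 0.0504) and scaling by total counts (edgeR adjusted p = 0.0694). It was also lost without uninjured replicate 1 or 4 and without injured replicate 1, 2 or 3, and without injured replicate 4 the log2 fold change was -2.19. Without both uninjured replicates 1 and 4, where Gad1 was high, it was -0.52 (edgeR adjusted p = 0.525), so the size of the Gad1 difference rests on those libraries.

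**Figure D2:**
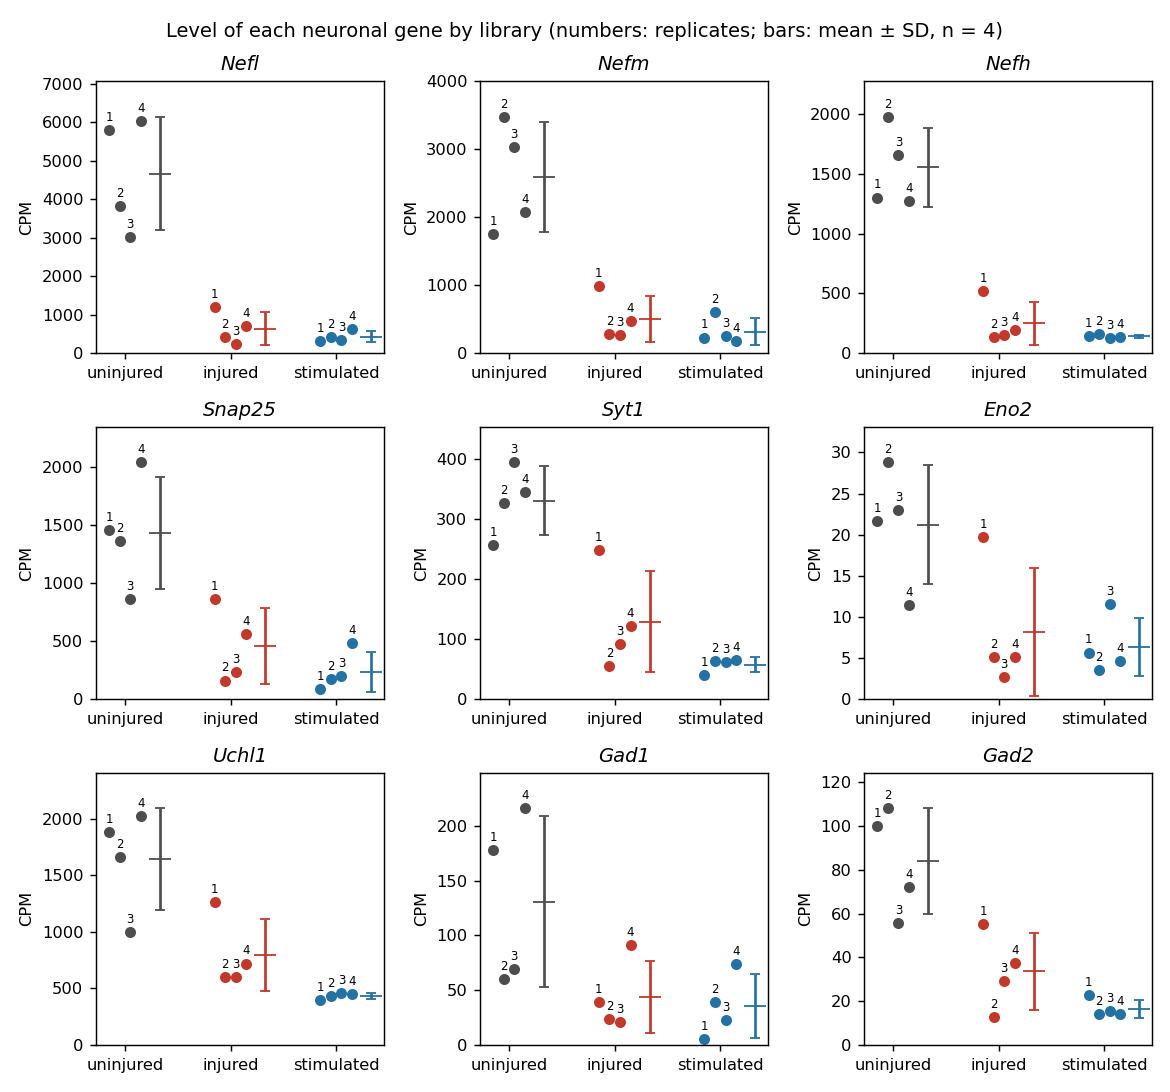
Level of each of the 9 genes in CPM (y axis, linear, a scale for each gene) in uninjured, injured and stimulated libraries, with replicate numbers on the points and the mean and SD of 4 libraries beside them. Injured replicate 1 is the highest injured library for 8 of the 9 genes.

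The injured libraries differed from each other in a shared way. Injured replicate 1 had the highest level of its group for 8 of the 9 genes and injured replicate 4 for the other, Gad1, while the lowest level fell to replicate 2 for 5 genes and to replicate 3 for 4. The coefficient of variation in injured cord was 40.0% for Uchl1, 52.2% for Gad2 and 65.0% to 95.5% for the other 7 genes, against 17.4% to 59.8% in uninjured cord. Injured replicates 4 and 1 were also the deepest libraries of the series, with 553986 and 510260 counts, and injured replicates 2 and 3 had 400029 and 399386. With every library thinned to 204836 counts, 7 of the 7 members still tested were called lower, where 614 of all 3892 genes tested were. Nefl then had a log2 fold change of -2.92 (edgeR adjusted p = 0.000105, within 2.33e-13 to 0.000927 over its 24 alternatives). Gad2 was not tested there, since it no longer passed the filter.

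Stimulated was compared with uninjured cord next, with the same uninjured libraries as before. The 8 tested genes again fell (edgeR, adjusted p under 0.05), where 16.2% of all tested genes were called lower and 34.6% were called in either direction. With no filter, the median log2 fold change of all 9 genes was -2.55. In that fit it was -0.04 over the 5285 genes that pass the filter. Gad2 had 0 of 4 stimulated libraries over the filter's limit and Gad1 had 2 of 4. The place of Gad2 among the genes tested thus favoured a fall here too, and its call is to be read with that limit.

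Nefl was at 312, 428, 338 and 627 CPM in stimulated replicates 1 to 4, all far below the uninjured range. Its log2 fold change was -3.45 (SE 0.45, edgeR adjusted p = 2.88e-05). Nefh was at 147, 159, 131 and 139 CPM, from 26 to 45 counts, a coefficient of variation of 8.43% against 71.5% in injured cord. On so few counts, counting error alone gives a wider spread than 8.43% on average, so that value does not show that stimulated samples were alike. The log2 fold change of Nefh was -3.43 (SE 0.40, edgeR adjusted p = 1.08e-05), the smallest adjusted p of the set in this comparison. Nefm was at 232, 612, 261 and 176 CPM, with replicate 2 above the others, and its log2 fold change was -3.0 (SE 0.47, edgeR adjusted p = 0.000143). For the 3 neurofilament genes no stimulated library reached the lowest uninjured one, a separation that 15.1% of tested genes showed in this direction.

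Snap25 was at 90.6, 173, 196 and 487 CPM in stimulated cord, where replicate 4 was the high one. Its log2 fold change was -2.59 (SE 0.54, edgeR adjusted p = 0.00118). It was -3.20 without stimulated replicate 4. Syt1 was at 39.7, 63.7, 61.5 and 65.0 CPM, from 7 to 18 counts, and fell by 2.50 on the log2 scale (SE 0.40, edgeR adjusted p = 0.000145). Uchl1 was at 397, 428, 457 and 450 CPM, from 70 to 121 counts. Its coefficient of variation was 6.31%, again less than counting error alone gives on average. Uchl1 fell by 1.92 on the log2 scale (SE 0.32, edgeR adjusted p = 0.000202). All 3 had every stimulated library below every uninjured one.

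Gad2 was at 22.7, 14.2, 15.4 and 13.9 CPM in stimulated cord, which is 3 or 4 counts a library. It fell by 2.35 on the log2 scale (SE 0.45, edgeR adjusted p = 0.000630) with no overlap of the groups. Gad1 was at 5.67, 38.9, 23.1 and 74.3 CPM, from 1 to 16 counts, and stimulated replicate 4 lay above uninjured replicates 2 and 3. Gad1 fell by 1.82 on the log2 scale (SE 0.59, edgeR adjusted p = 0.0236). Its adjusted p rose above the threshold in 6 of 24 alternatives, to 0.0587 with limma-voom and to 0.0519 to 0.0695 without uninjured replicate 1 or 4 or stimulated replicate 1 or 3. Without both uninjured replicates 1 and 4 the log2 fold change of Gad1 was -0.85 (edgeR adjusted p = 0.323). Eno2 was at 5.67, 3.54, 11.5 and 4.64 CPM, and its ratio of summed counts to uninjured cord was 0.289, with a counting interval of 0.0975 to 0.714.

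**Figure D3:**
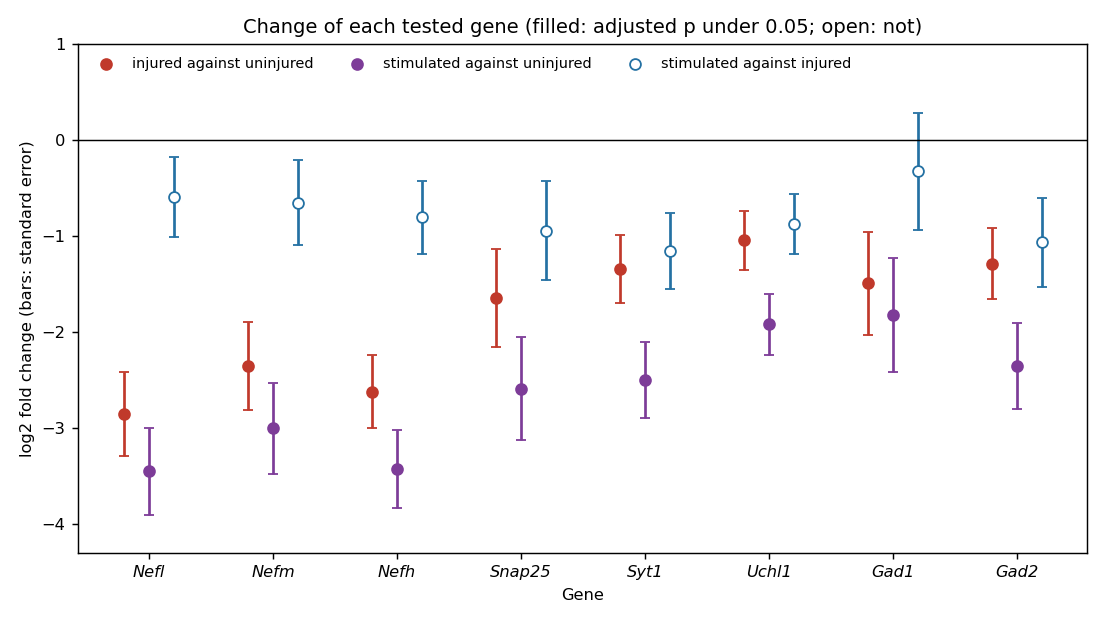
Log2 fold change of each of the 8 tested genes (y axis) with its standard error in 3 comparisons, filled where the adjusted p is under 0.05. All 16 estimates against uninjured cord are filled and between -3.45 and -1.04, and the 8 estimates of stimulated against injured cord are open and between -1.16 and -0.33.

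Stimulated was then compared with injured cord, the comparison that bears on the epidural stimulation. None of the 8 tested genes was called, and 0% of all tested genes were (edgeR, smallest adjusted p = 0.486). All 8 estimates were below 0. With no filter the median of all 9 genes was -0.95, against -0.11 in that fit over the 5285 genes that pass the filter. At an unadjusted p under 0.05 there were 4 members, Syt1, Uchl1, Gad2 and Nefh, and 9.29% of all tested genes. Gad2 was in this comparison only through the uninjured libraries. In a fit to the stimulated and injured groups alone, 7 members were tested and Gad2 was not among them. DESeq2 and limma-voom with sample weights called 0 members, and so did edgeR without a filter.

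All estimates but that of Gad1 came nearer to 0 without injured replicate 1, the library with the highest levels of its group. Syt1 had a log2 fold change of -1.16 (SE 0.39, edgeR adjusted p = 0.486), which was -0.65 without injured replicate 1. Uchl1 had -0.88 (SE 0.31, edgeR adjusted p = 0.486), and it was the 1 member whose 4 stimulated libraries, at 397 to 457 CPM, all lay below the 4 injured ones, at 598 to 1266 CPM. Of all tested genes 2.57% showed that separation. Without injured replicate 1 the estimate for Uchl1 was -0.57.

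For the neurofilament genes the estimates shrank further. Nefl had a log2 fold change of -0.60 (SE 0.42, edgeR adjusted p = 0.643). Leaving out injured replicate 1 left -0.11. In the same order, Nefm had -0.65 and -0.11, and Nefh had -0.81 and -0.19. Snap25 had -0.95 (SE 0.52, edgeR adjusted p = 0.576) and -0.46 without that library. Gad2 had -1.07 and -0.74. Gad1 had -0.33 (SE 0.61, edgeR adjusted p = 0.880), and its sign turned to 0.34 without injured replicate 4.

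The differences between stimulated and injured cord had wide intervals. The intervals given here belong to limma-voom with sample weights, whose estimates were smaller in size than those of edgeR for every tested member. Its log2 fold change was -0.16 for Nefl, -0.41 for Nefh and -0.79 for Syt1. The limma-voom 95% interval of the fold of stimulated over injured cord was 0.504 to 1.60 for Nefl, 0.426 to 1.43 for Nefm and 0.472 to 1.19 for Nefh. It was 0.305 to 1.24 for Snap25, 0.339 to 0.989 for Syt1, 0.411 to 0.901 for Uchl1, 0.332 to 2.25 for Gad1 and 0.261 to 1.25 for Gad2. The intervals of Syt1 and Uchl1 exclude equal levels when each gene is taken alone, but neither gene passed after adjustment over all genes (limma-voom adjusted p = 0.539 and 0.505). For Eno2 the ratio of summed counts was 0.748, with a counting interval of 0.240 to 2.01.

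The balance between members was measured as the ratio of their counts within a library, which does not depend on how the library is scaled. In 3 contrasts 7 pairs were compared, 21 tests in all, by exact two-sided permutation of 4 against 4 libraries, for which 0.0286 is the smallest p. Over 21 tests, at least 12 would have to reach that p before any passed Benjamini-Hochberg adjustment, so the adjusted values, of which 0 passed, say little about a single pair. The ratios are therefore given mainly as values. The ratio of Nefl to Snap25 was 3.97, 2.81, 3.48 and 2.96 in uninjured, 1.40, 2.61, 1.02 and 1.24 in injured, and 3.44, 2.47, 1.73 and 1.29 in stimulated replicates 1 to 4. Every injured library was below every uninjured one (log2 difference -1.16, exact two-sided permutation p = 0.0286, adjusted p = 0.6), while stimulated libraries reached into the uninjured range (log2 difference -0.66, exact permutation p = 0.0857, adjusted p = 0.6).

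**Figure D4:**
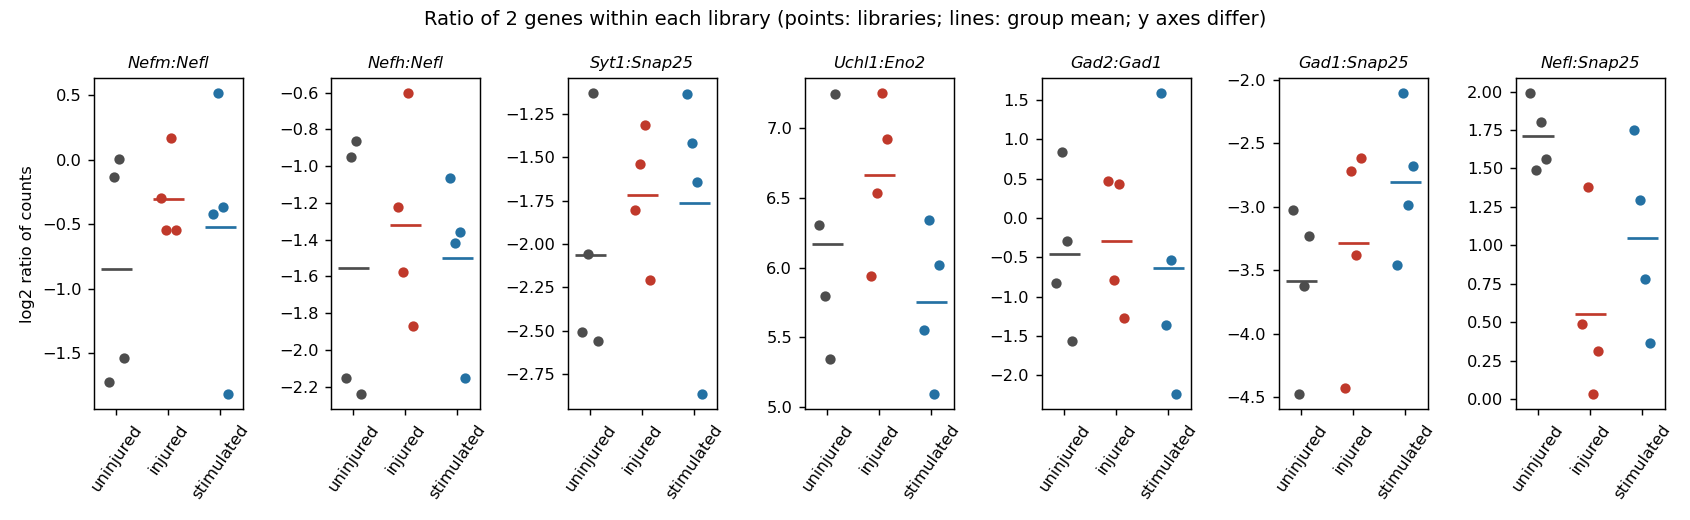
Log2 ratio of the counts of 2 genes in each library (points) with the group mean (lines), for 7 pairs, with an axis for each pair. Groups overlap in all pairs except Nefl to Snap25, where the 4 injured libraries lie below the 4 uninjured ones. The nearest libraries of these groups are within counting error of each other.

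The ratio of the neurofilament subunits varied among libraries of 1 group. Nefm and Nefl lie next to each other in the rat genome, with 0 protein-coding genes and 1 other annotated gene between them in the RefSeq table. The ratio of Nefm to Nefl counts was 0.303 and 0.345 in uninjured replicates 1 and 4, with exact 95% counting intervals of 0.270 to 0.339 and 0.313 to 0.381. It was 0.910 and 1.00 in uninjured replicates 2 and 3, with intervals of 0.847 to 0.977 and 0.916 to 1.10. The same 2 pairs of uninjured libraries stood apart over all genes, and same-group libraries in general differed by more than sampling noise.

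The ratio of Nefh to Nefl split the uninjured libraries in the same way, at 0.224 and 0.211 in replicates 1 and 4 and 0.517 and 0.549 in replicates 2 and 3. Nefl was higher in replicates 1 and 4, and both Nefm and Nefh were higher in replicates 2 and 3. Gad1 was also highest in uninjured replicates 1 and 4, at 178 and 216 CPM against 60.0 and 69.0 CPM. In stimulated cord the ratio of Nefm to Nefl ran from 0.281 in replicate 4, with an interval of 0.191 to 0.406, to 1.43 in replicate 2, with an interval of 1.13 to 1.82. Over all genes, however, stimulated replicates 2 and 4 were the most alike of their group (chi-square per degree of freedom 2.95). In injured cord the ratio of Nefm to Nefl ran from 0.684 to 1.12. Between injured and uninjured cord the ratio of Nefm to Nefl differed by 0.54 on the log2 scale, and the groups overlapped (exact two-sided permutation p = 0.371, adjusted p = 0.943). The permutation p for Nefh to Nefl was 0.6 there (adjusted p = 0.943), for a log2 difference of 0.23.

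The ratio of the 2 GABA enzymes overlapped between groups. The ratio of Gad2 to Gad1 counts was 0.561, 1.80, 0.810 and 0.333 in uninjured, and 1.40, 0.556, 1.38 and 0.407 in injured replicates 1 to 4. The group difference was 0.17 on the log2 scale (exact two-sided permutation p = 0.857, adjusted p = 0.943), less than the spread within either group. Stimulated libraries held 3 or 4 counts of Gad2 and 1 to 16 of Gad1, too few to place the ratio. The ratio of Syt1 to Snap25 differed by 0.35 on the log2 scale between injured and uninjured cord (exact two-sided permutation p = 0.400, adjusted p = 0.943), and that of Gad1 to Snap25 by 0.30 (exact permutation p = 0.543, adjusted p = 0.943). The ratio of Uchl1 to Eno2 rests on the low counts under the Eno2 identifier. It differed by -0.91 on the log2 scale between stimulated and injured cord (exact permutation p = 0.0857, adjusted p = 0.6).

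Genes with a like pattern over the 12 libraries were ranked for Nefl, Snap25 and Gad2. Among 3106 tested genes with a mean count of 20 or more, the one most like Nefl was ENSRNOG00000005299, with a Pearson correlation of log2 CPM of 0.988. It was at 1504 ± 327 CPM in uninjured, 387 ± 126 CPM in injured and 325 ± 43.7 CPM in stimulated cord (SD, n = 4 each). The one most like Snap25 was ENSRNOG00000030877, with a correlation of 0.987, at 458 ± 198, 117 ± 82.3 and 53.1 ± 37.5 CPM in the same order. The one most like Gad2 had a correlation of 0.969 but a small difference, with 546 ± 38.5, 417 ± 59.4 and 372 ± 16.4 CPM and a log2 fold change of -0.39 for injured against uninjured cord that was not called (edgeR adjusted p = 0.221). The libraries fall into groups and share their scaling, so these correlations only rank likeness. The first 2 genes are given by identifier because the tables used here do not pair it with a symbol.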

How the data were processed

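RNA of T9 spinal cord was sequenced as CEL-Seq2 3' tag libraries, per the labels' protocols. The authors deposited whole-number counts per Ensembl gene for 12 libraries. HISAT2 2.0.4, HTSeq 0.6.0 and Rnor_6.0 are named in the submitters' processing notes. Neither the annotation release, the strand setting nor collapsing by molecular identifier is stated there or in the labels. A ceiling of 4059 to 4094 on the highest count of each library, under the 4096 identifiers of 6 bases, is what counts of distinct identifiers give. Genes that overlap or share sequence were not separated.

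The tests used edgeR 4.0.16 in R 4.3.3: filterByExpr by group, TMM factors, a robust quasi-likelihood fit with a term for the group over the 12 libraries, and Benjamini-Hochberg adjustment over the 5285 genes tested, at 0.05. Each standard error is the log2 fold change over the root of its F statistic. CPM used TMM-scaled totals of the genes tested, and log2 CPM a prior count of 2. Alternatives used DESeq2 1.42.0, limma 3.58.1 (voom with sample weights, also the source of 95% intervals), other scalings and filters, a fit to the 2 groups of a comparison alone, a block for replicate number, a correction for collisions of 6-base identifiers, thinning and leaving out each library. Leaving out 2 uninjured libraries at once was added after seeing the data, and was not done for stimulated libraries. Ratios within a library used a prior count of 0.5 in the tests and none in the printed ratios, whose intervals are exact Clopper-Pearson at 95%. Libraries of the same group always differed by more than sampling noise, with chi-square over degrees of freedom of 2.95 to 10.0. Figures were drawn with matplotlib 3.10.9.

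The members and lists were chosen with earlier results of these data known. All 9 members are named. By the rule for likeness, the gene most correlated with Nefl, Snap25 and Gad2 would be named, and by identifier at most 2 are. Lists of other neuronal genes and of markers of other cell types had been set by symbol and were not used here, because 0 Ensembl identifiers could be matched to a symbol. The tissue label was therefore checked only on the members, which were all counted in every library.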

Additional observations from a re-analysis of the deposited data

Results flagged for a closer look

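In each of the 27 groups of 4 libraries formed by the 9 genes and the 3 groups, the highest or lowest library was marked when it lay apart from the rest by Dixon's gap test at the 95% level. This marked 4 groups, where chance gives about 1.35. The genes share libraries, so the 4 are not independent. Nefh in injured cord was at 519 CPM in replicate 1 and at 140 to 191 CPM in the others (a gap of 0.864 of the range of the group). Eno2 in injured cord was at 19.7 CPM in the same library, from 10 counts, and at 2.63 to 5.17 CPM in the others (gap 0.851). Syt1 in stimulated cord was low in replicate 1, at 39.7 CPM against 61.5 to 65.0 CPM (gap 0.862), which is 7 counts against 14 to 18 in shallow libraries. Gad2 in stimulated cord was at 22.7 CPM in replicate 1 and at 13.9 to 15.4 CPM in the others (gap 0.834), where all 4 libraries had 3 or 4 counts.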

How the results depend on the processing

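The number of member genes called in injured against uninjured cord was 8. It was 5 to 8 when each library was left out. Without injured replicate 2 and without injured replicate 3 it was 5, with Snap25, Uchl1 and Gad1 lost. Of all genes tested in those fits, 669 of 5404 and 624 of 5392 were called lower in the same order. The number of members called was also 5 without both uninjured replicates 1 and 4, where the same 3 were lost, and 7 or 8 in the other alternatives. It was 7 or 8 in all alternatives for stimulated against uninjured cord, and 0 in all for stimulated against injured cord. Of 569 alternative estimates for the 8 tested genes, 548 kept their direction and side of the threshold, 20 kept the direction and lost the call, and 1 turned: Gad1 in stimulated against injured cord, -0.90 to 0.34 when each library was left out. All 20 lost calls were in the comparisons with uninjured cord. Stimulated against injured cord had no member call to lose, so its share of the 548 says little. Scaling by total counts moved the median of all tested genes by more than any other scaling, to 0.12 for injured against uninjured and -0.15 for stimulated against injured cord, and the calls of injured against uninjured cord from 803 lower and 889 higher to 665 lower and 1022 higher. Without a filter on low counts 28 genes were called between stimulated and injured cord, DESeq2 called 1 and edgeR without stimulated replicate 3 called 1, none of them a member. The correction for identifier collisions moved Nefl most, from -2.86 to -3.10 in injured against uninjured cord.

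The fit with a replicate block called 8, 8 and 0 members in injured against uninjured, stimulated against uninjured and stimulated against injured cord. Of all 5285 genes tested, 848, 910 and 0 were called lower in the same order. Nothing in the labels pairs the numbers, and same-numbered libraries had correlations of deviations from -0.344 to 0.429.

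The adjusted test of the within-library ratios could hardly pass in this design, so only their values are compared. Ratios near 0 turned sign when each library was left out. The log2 differences ran from -0.022 to 0.75 for Nefm to Nefl and -0.17 to 0.28 for Nefh to Nefl in stimulated against uninjured cord, from -0.56 to 0.21 and from -0.36 to 0.059 in stimulated against injured cord, and from -0.0046 to 0.46 for Nefh to Nefl in injured against uninjured cord. For Gad2 to Gad1 they ran from -0.19 to 0.60 for injured and -0.91 to 0.36 for stimulated against uninjured cord, and from -1.09 to 0.19 for stimulated against injured cord. For Syt1 to Snap25 in stimulated against injured cord they ran from -0.26 to 0.32, and the value was 0.021 with a prior count of 2. The cause was not tested. Depth limits Eno2, Gad1 and Gad2 most. Gad2 was not tested after thinning or with a mean count of at least 20. It was also not tested between stimulated and injured cord in the fit to those 2 groups alone.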
